A study of Mus musculus with 115 samples.

Results

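The V-ATPase is the proton pump of lysosomes, endosomes, secretory granules and, in some epithelia, the cell surface. Its V1 sector, in which the A and B subunits alternate, splits ATP in the cytosol, and its V0 sector, with the a and d subunits around a ring of c subunits, carries protons across the membrane. Ccdc115 and Tmem199 are assembly factors that act on the V0 sector in the early secretory pathway. Several subunits have isoforms: B2, a1 and d1 are widespread, whereas B1, a4 and d2 are known from acid-secreting cells of the kidney and epididymis, and d2 also from osteoclasts.

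The 10 genes examined here, of 45699 in the table, were the assembly factors Ccdc115 and Tmem199 and the subunit genes Atp6v1a, Atp6v1b1, Atp6v1b2, Atp6v0a1, Atp6v0a2, Atp6v0a4, Atp6v0d1 and Atp6v0d2. They were chosen by name, with earlier results of these data known. RNA came from prostate tumor tissue of (TRAMP x WSB/EiJ) F2 males, 79 and 36 libraries as separated below, 1 for each mouse label and all in 1 group. All mice were positive for the TRAMP transgene, SV40 T antigen under a minimal probasin promoter that is active in prostate epithelium, and carried a mixture of C57BL/6 and wild-derived WSB/EiJ alleles. Mice were kept to a fixed or a humane endpoint, small prostates gave RNA of the ventral lobe only, and per-mouse age, genotype and tumor burden were not used here. The study searched for inherited modifiers of prostate tumor aggressiveness, and with 1 group the comparisons it allows here are relations across mice.

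Values are TPM, the transcript abundance of a gene scaled so that each library has the same total, and sequencing depth is therefore unknown. The 20 genes with the largest share took between 48.9% and 81.8% of a library. With no library left out, every limma fit and every r of a member with another single gene was also computed after 2 other scalings. These were TPM rescaled without those 20 genes and median-of-ratios scaling. Fits and correlations that left libraries out were computed in TPM only. So were correlations of shares within a subunit and correlations with summed levels of gene lists. The libraries separated on the first principal component (48.71% of the variance) into a larger part of 79 and a smaller part of 36, which were never compared with each other. Relations are given within each part. Atp6v1b1 passed the filter on low values only through the larger part. In the smaller part its median was 0.015 TPM, so counts of 10 members there (9 with Ccdc115) hold 1 that could hardly vary. In 5 libraries the prostate gene Hoxb13 was under 1 TPM, against 1.37 TPM or more in the other 110. One of them, W1154 (0.02 TPM of Hoxb13), lies in the larger part, and 4 (0.04 to 0.15 TPM of Hoxb13) lie in the smaller part, where they also have the lowest Chga. The label of another library, W78022, is close to that of W7822, and whether they are different mice is not clear. The 13 calls of members in the larger part held without W78022. The study describes fewer sequenced prostates than there are libraries. Each result that rests on the libraries lacking Hoxb13 is given with and without those libraries, a choice made after the values were seen. In bulk tissue fewer cells of a type and less RNA per cell cannot be told apart.

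Of the 10 genes, 3 have the letters CACGTG, an E-box that is the core of the CLEAR motif bound by the TFEB family of lysosomal regulators, near their start, and these sites are shown because they are a sequence feature the choice of genes did not use. RefSeq promoters on GRCm38.p6 (250 bases before to 50 after the start) were given for 7 of the 10 genes. The motif reads the same on both strands and is in capitals below.
Ccdc115, chr1:34439696-34439725, minus strand: gatttgggatgtCACGTGgtctaagaccgt
Atp6v1a, chr16:44139373-44139402, minus strand: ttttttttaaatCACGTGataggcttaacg
Atp6v0d1, chr8:105566050-105566079, minus strand: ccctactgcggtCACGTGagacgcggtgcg
The motif began 41, 131 and 3 bases before the RefSeq start, respectively, and the site of Atp6v1a lies inside the GENCODE gene body, which starts further upstream. Of all 32851 promoters, 7.15% held it. The longer TCACGTGA, which contains it, was in the promoters of Atp6v1a and Atp6v0d1 and in 0.97% of all. Of 15 other V-ATPase genes with a promoter, 3 held CACGTG. The site of Ccdc115 is the same stretch of DNA that lies 121 bases before the start of Imp4, its neighbor on the other strand.

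Of the widespread subunits among the 10 genes, B2, A and d1 had the highest and similar levels in most mice, followed by a1 and then a2. Other subunits were higher, with medians of 62.25 TPM for Atp6v1f and 55.01 TPM for Atp6v0b. Levels are TPM, per transcript length, over all libraries as lowest, median and highest, and positions are gene bodies on GRCm38 from GENCODE M21. Atp6v1b2, the B2 subunit (ENSMUSG00000006273, chromosome 8, 69088646 to 69113711), was at 7.91, 26.2 and 51.18 TPM (mean 27.2, SD 7.30). Atp6v1a, the A subunit that carries the catalytic site (ENSMUSG00000052459, chromosome 16, 44085402 to 44139705), was at 7.54, 25.24 and 56.33 TPM (mean 27.1, SD 7.94). Atp6v0d1, which joins the sectors (ENSMUSG00000013160, chromosome 8, 105524465 to 105566047), was at 7.68, 24.06 and 39.6 TPM (mean 23.6, SD 5.63). The A and B subunits are present in equal number in the pump, and Atp6v1b2 exceeded Atp6v1a in 67 of all libraries, so that their order is not clear beyond the spread. Atp6v0a1, the a subunit known from neurons and synaptic vesicles (ENSMUSG00000019302, chromosome 11, 101009452 to 101063719), was at 4.49, 18.44 and 38.57 TPM (mean 19.3, SD 5.76), below Atp6v0d1 in 87 libraries. Atp6v0a2, an a subunit of the Golgi and endosomes (ENSMUSG00000038023, chromosome 5, 124628576 to 124724455), was lower, at 3.45, 8.16 and 14.95 TPM (mean 8.32, SD 2.61).

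The assembly factors lay below the A, B2, a1 and d1 subunits in most libraries. Ccdc115 (ENSMUSG00000042111, chromosome 1, 34436670 to 34439672) was at 2.4, 7.7 and 15.07 TPM (mean 7.99, SD 2.34) and reached 1 TPM in every library. Tmem199 (ENSMUSG00000051232, chromosome 11, 78507055 to 78512172) was at 3.76, 9.3 and 30.27 TPM (mean 10.9, SD 5.28), below Atp6v0a1 in most libraries. Atp6v0a2 exceeded Ccdc115 in 66 libraries and Tmem199 exceeded Atp6v0a2 in 60, but this order is not the same within the parts. The medians of Tmem199, Ccdc115 and Atp6v0a2 were 7.99, 7.35 and 8.65 TPM in the larger part and 16.5, 8.97 and 6.37 TPM in the smaller part. Tmem199 ran from 3.76 to 11.48 TPM in the larger part and from 9.57 to 30.27 TPM in the smaller part. The log2 ratio of Ccdc115 to Tmem199 had a median of -0.39 and a range of -1.92 to 0.75.

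The 3 isoforms known from acid-secreting cells were close to 0 in most mice and high in a few. Atp6v0a4 (a4, ENSMUSG00000038600, chromosome 6, 38048483 to 38124586) was at 0.02, 0.55 and 4.67 TPM, and 31 libraries reached 1 TPM. Atp6v0d2 (d2, ENSMUSG00000028238, chromosome 4, 19876841 to 19922605) was at 0, 0.24 and 12.88 TPM. Its highest value was that of W1154, one of the libraries that nearly lack Hoxb13, and the next highest was 2.84 TPM. Atp6v1b1 (B1, ENSMUSG00000006269, chromosome 6, 83742990 to 83758855) was at 0, 0.03 and 2.61 TPM; 24 libraries list it at 0, and 6 had 1 TPM or more. Ccdc115 exceeded Atp6v0a4 in every library, whereas Atp6v0a4 exceeded Atp6v0d2 in 73 and Atp6v0d2 exceeded Atp6v1b1 in 84. In W1154, however, Atp6v0d2 (12.88 TPM) was above every widespread member but Atp6v1a (27.11 TPM).

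**Figure D1:**
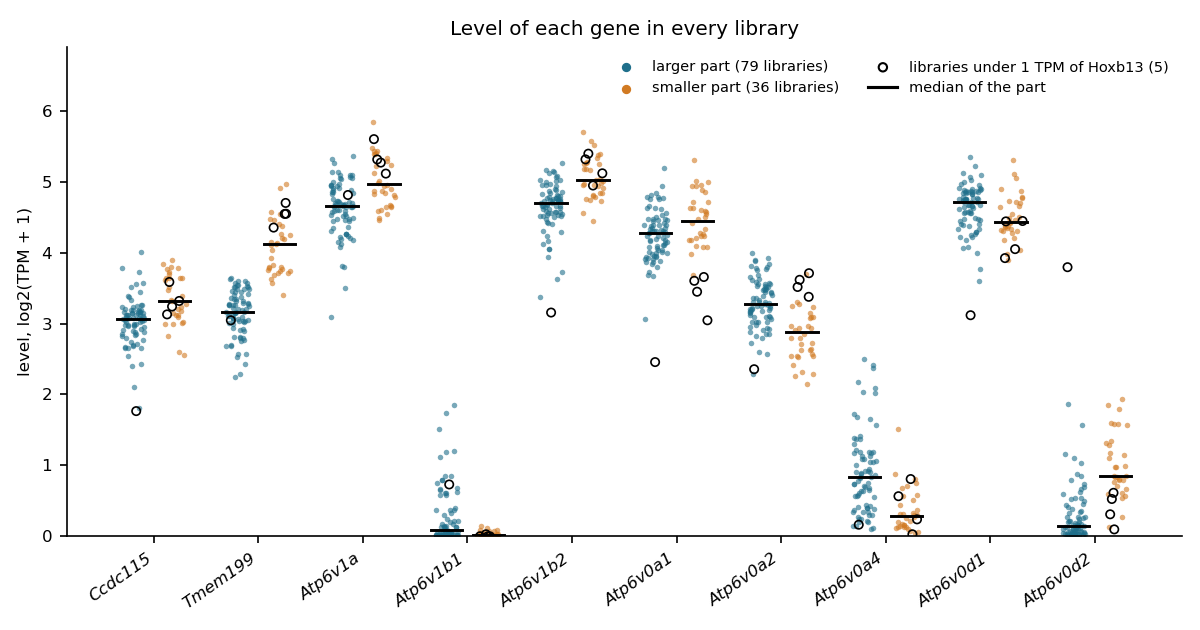
Level of each of the 10 genes in every library, on a log2(TPM + 1) axis. Points are libraries of the larger (blue) and smaller (orange) part, bars are the median of a part, and rings mark the 5 libraries under 1 TPM of Hoxb13. The widespread genes lie well above 0 in every library, and Atp6v1b1, Atp6v0a4 and Atp6v0d2 lie near 0 in most, with W1154 at 12.88 TPM of Atp6v0d2.

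Counting by share of TPM within a subunit, which no scaling can move, the B subunit was almost all Atp6v1b2. Atp6v1b1 held a median of 0.0989% of it (0.317% in the larger and 0.0432% in the smaller part) and at most 10.6%. For the d subunit, Atp6v0d2 held a median of 1.10% and at most 62.6%, in W1154, and at most 11.7% without the libraries that lack Hoxb13. Its median was 0.425% in the larger part and 3.83% in the smaller. The a subunit was mixed. Atp6v0a1 held a median of 49.1%, Tcirg1 (a3, known from osteoclasts and the lysosomes of macrophages) 26.6%, Atp6v0a2 19.98% and Atp6v0a4 1.26%. These medians pool both parts. Within the larger and the smaller part the mean share of Atp6v0a1 was 44.7% ± 10.2 and 55.3% ± 16.3 (SD, n = 79 and 36) and that of Tcirg1 31.5% ± 10.9 and 27.2% ± 15.7. The median shares were 21.8% and 16.5% for Atp6v0a2 and 1.86% and 0.552% for Atp6v0a4. The log2 ratio of the A subunit to the summed B subunits had a median of -0.04 and ran from -0.73 to 1.66, or to 0.59 without the libraries that lack Hoxb13.

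The first relation asked which members followed Ccdc115 from mouse to mouse. Of the 9 other genes, 6 rose with Ccdc115 in the larger part, namely the A, B2, a1, a2 and d1 subunits and Tmem199, and 0 fell. A slope is the difference in log2(TPM + 1) of a gene per unit of log2(TPM + 1) of Ccdc115, fitted with limma over 23163 genes. It was 0.74 ± 0.09 (SE, adjusted p = 1.29e-10) for Atp6v1b2 and 0.72 ± 0.08 (adjusted p = 3.88e-11) for Atp6v0d1. Atp6v1a had a slope of 0.60 ± 0.10 (adjusted p = 1.24e-06). The slopes of Atp6v0a1, Atp6v0a2 and Tmem199 were 0.49, 0.49 and 0.43, with adjusted p of 0.000168, 2.51e-05 and 5.79e-05. The median over all genes was 0.18, and 38.4% of all genes rose with Ccdc115 and 1.06% fell, so a call is common here. Among genes averaging 1 TPM or more, as these 6 do, the median slope was 0.38 and 58.6% rose. The other 3, Atp6v1b1 (0.01), Atp6v0a4 (0.24) and Atp6v0d2 (-0.35), were not called.

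The calls were recomputed under the other scalings, since Ccdc115 was lower where the 20 leading genes took more of a library (r = -0.437, rho = -0.436, n = 79, permutation p = 6e-05 and 0.00011, and r = -0.415 without the 2 farthest libraries). After rescaling without those genes the median slope of all genes was -0.02, and after median-of-ratios scaling it was -0.04. The slopes of Atp6v1b2 (0.52 and 0.54), Atp6v0d1 (0.52 and 0.64), Atp6v0a1 (0.38 and 0.34) and Atp6v1a (0.23 and 0.49) stayed positive and called under both. Those of Tmem199 (0.11) and Atp6v0a2 (0.13) lost the call when rescaled, where 15.4% of all genes rose and 13.6% fell, and held it under median-of-ratios scaling (0.27 and 0.16). Of the calls over all genes, 97.3% were positive in TPM, 53% when rescaled and 44.4% under median-of-ratios scaling. Atp6v0a4 had a slope of -0.54 under median-of-ratios scaling, which was called, and of -0.50 when rescaled, which was not.

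The correlation of Ccdc115 with Atp6v0d1 was r = 0.724 and rho = 0.575 (n = 79), each with p = 1e-05, the lowest value possible with 100000 permutations. The r was 0.60 without the 2 farthest libraries and 0.664 without W1154, and all 6 calls held without W1154, with slopes of 0.32 to 0.74. Atp6v1b2 itself separated into 9 low libraries (7.91 to 16.92 TPM) and 70 high ones (17.78 to 37.46 TPM) within the larger part. Its r with Ccdc115 was 0.454 (rho 0.450, permutation p = 0.00012 and 0.00014) within the 70, while its limma slope pooled both sides. The summed seminal vesicle genes had a median of 88658 TPM in the 9 and of 455 TPM in the 70. The part of seminal vesicle tissue in this separation was not tested. The lowest Ccdc115 of all, 2.4 TPM in W1154, went with the lowest Atp6v1b2, Atp6v0d1 and Atp6v0a1 of all libraries.

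**Figure D2:**
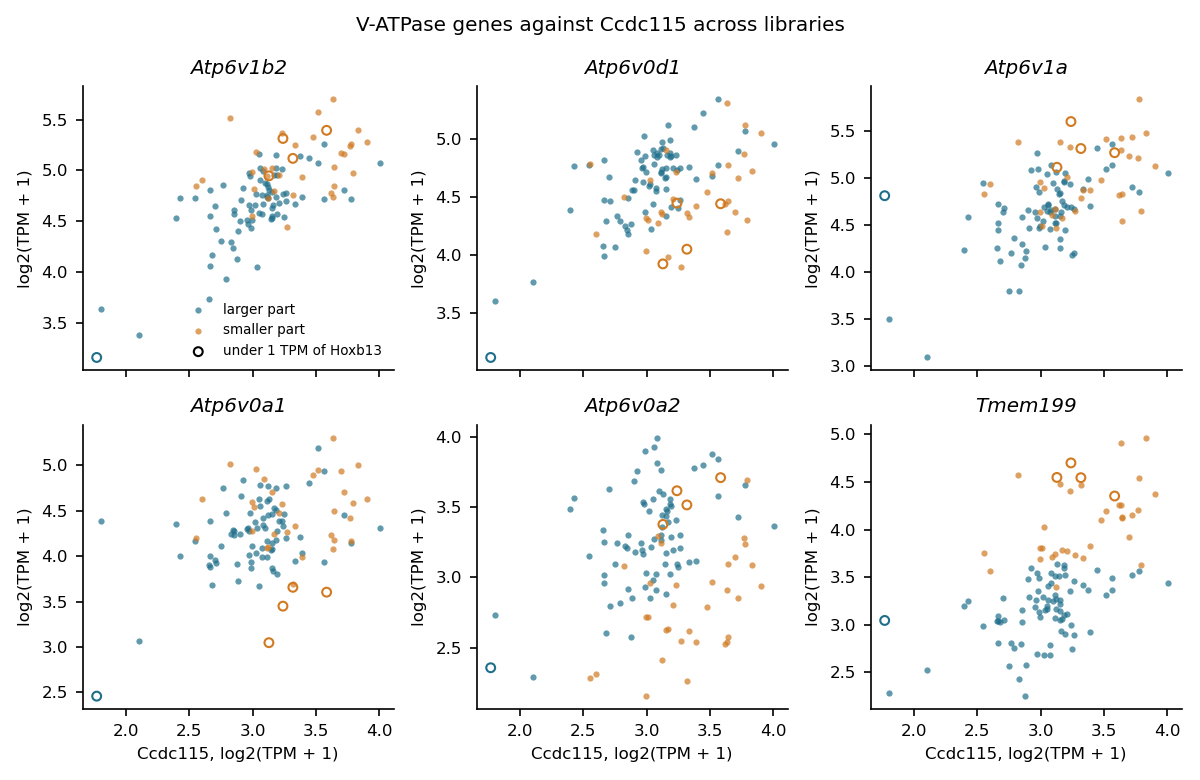
Each panel plots 1 gene against Ccdc115, both as log2(TPM + 1), with libraries of the larger part in blue, of the smaller part in orange, and rings for those under 1 TPM of Hoxb13. In the larger part Atp6v1b2 and Atp6v0d1 have the steepest slopes on Ccdc115 of the genes shown (0.74 and 0.72). W1154 is the blue ring at the far left.

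Across the smaller part limma called 0 of the 9 genes with Ccdc115, and 0.0% of all genes with a positive and 0.0% with a negative slope. At an unadjusted p under 0.05 there were 4 of the 9, all positive, and 11.9% of 23165 genes, and under the other scalings 0 of the 9 were called. The slopes of those 4 were 0.47 ± 0.18 for Tmem199, 0.45 ± 0.19 for Atp6v0a2, 0.38 ± 0.15 for Atp6v0d1 and 0.35 ± 0.17 for Atp6v1a, with adjusted p of 0.376 to 0.41. A difference between the parts was not tested.

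Other V-ATPase genes behaved much like the members. Of 18 tested, 13 rose with Ccdc115 in the larger part and 0 fell, with a median slope of 0.50 against 0.49 for the members. The steepest were Atp6v1c2, a C subunit isoform (1.59 ± 0.37, adjusted p = 0.000224), Atp6v0e2 (0.78 ± 0.15, adjusted p = 1.49e-05) and Atp6v0e (0.69 ± 0.12, adjusted p = 9.75e-07), a pair of small V0 subunits. When rescaled 9 rose and 1 fell, and under median-of-ratios scaling 13 and 3. Without W1154 the count stayed at 13, with slopes of 1.07, 0.55 and 0.68 for these 3. Lysosomal genes rose too, 14 of 19 and 11 without W1154, but under each of the other scalings 3 rose and 5 fell, with medians of -0.03 and -0.07. Over all genes 38.4% rose in TPM, and 58.6% of those averaging 1 TPM or more, with a median slope of 0.38 among the latter. Without W1154 31.7% of all genes rose. When rescaled 15.4% rose and 13.6% fell, and under median-of-ratios scaling 21.7% rose and 27.2% fell. Of the lysosomal genes Neu1, a sialidase (0.85 ± 0.13), Gaa, the acid glucosidase (0.72 ± 0.17), and Hexa, a hexosaminidase subunit (0.70 ± 0.15), had the steepest slopes. The slope of Gaa was -0.04 and -0.11 under the other scalings, and those of Neu1 were 0.87 and 1.16. Of 8 acid-secreting cell genes tested, Car2 rose (1.36), Car12 fell (-0.37, and -0.09 and not called without W1154) and the rest were not called. Of all these lists 0 genes were called in the smaller part.

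The members varied together to differing degrees. Over the 45 pairs in the larger part the median r was 0.363, against 0.26 over all pairs of genes, and 16 pairs were over 0.5. Pairs with Atp6v1b2 entered there from its 70 high libraries. All pairs of genes means genes averaging 0.1 TPM or more, which were not matched in level to the members. It was below that of all pairs when rescaled (0.066 against 0.112) and above it under median-of-ratios scaling (0.141 against -0.002). The median r in the smaller part was 0.098 against 0.047, with 6 pairs over 0.5, and it was 0.205 without the 4 libraries that lack Hoxb13. The p-values of pairs below are not adjusted for the 45 pairs of each part.

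Among the widely expressed genes, Atp6v1b2 with Atp6v0d1 and Tmem199 with Atp6v1a had the highest r in the larger part. Atp6v1b2 was taken there within its 70 high libraries. Atp6v1a with Atp6v0d1 had a higher rho there, 0.771, with r = 0.708, and r = 0.838 without W1154. In the smaller part Atp6v1a with Atp6v1b2 (r = 0.691, rho = 0.715) was above Atp6v1b2 with Atp6v0d1. Atp6v1b2 and Atp6v0d1, which sit on the same chromosome far apart, had r = 0.741 and rho = 0.714 within the 70 libraries (permutation p = 1e-05 for each, r = 0.694 without the 2 farthest). They had r = 0.625 and rho = 0.613 in the smaller part (permutation p = 4e-05 and 8e-05, r = 0.488 without the 2 farthest). Tmem199 and Atp6v1a had r = 0.729 and rho = 0.685 in the larger part and r = 0.753 and rho = 0.716 in the smaller part (permutation p between 1e-05 and 2e-05). Without the 2 farthest libraries these were 0.697 and 0.733. The pair was weaker, though still positive, when rescaled (0.324 and 0.583).

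The rarest isoforms went together in the larger part and not in the smaller. Atp6v1b1 and Atp6v0d2 had rho = 0.868 and r = 0.726 in the larger part (79 libraries; each permutation p = 1e-05; r = 0.653 without the 2 farthest libraries). Without W1154, whose Atp6v0d2 was far above the line of the others, r was 0.951. In the smaller part, where Atp6v1b1 was at most 0.11 TPM and listed at 0 in 14 libraries, r was -0.032 and rho 0.112 (permutation p = 0.852 and 0.517). The genes most like Atp6v1b1 in the larger part, looked up after its values were seen, were Atp6v1g3, a G subunit known from the kidney (r = 0.944), and Foxi1, the transcription factor of acid-secreting cells (r = 0.939).

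The 6 libraries with at least 1 TPM of Atp6v1b1 had 1.55 to 5.01 TPM of Foxi1 and 2.12 to 6.33 TPM of Atp6v1g3. They also had 6359 to 97253 TPM of 7 seminal vesicle genes in sum, against a median of 1145 TPM over the larger part. Across the larger part, Atp6v1b1 and that sum had r = 0.504 and rho = 0.581. Atp6v0d2 and that sum had r = 0.225 and rho = 0.502, and r = 0.573 without W1154. The part of seminal vesicle tissue in these levels was not tested. The sum of 11 acid-secreting cell genes had r = -0.158 and rho = -0.358 with Atp6v1b1. It ran from 18.17 to 178.86 TPM, of which Foxi1 held at most 5.01 TPM. Atp6v0a4 did not share this pattern, with r = 0.041 with the seminal vesicle sum.

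Mki67 marks dividing cells, and the question was which pump genes went with it from mouse to mouse. Across the larger part 4 of 10 members rose and 0 fell, while 56.1% of all genes rose and 2.71% fell, so this share is below that of all genes. Atp6v1b2, whose limma slope pooled its low and high libraries, was not among the 4. Within its 70 high libraries it had r = 0.432 and rho = 0.406 with Mki67 (permutation p = 0.00017 and 0.00036). That r was -0.279 when rescaled and -0.412 under median-of-ratios scaling. Atp6v0a4 had the steepest slope, 0.41 ± 0.04 (adjusted p = 6.01e-13), against a median over all genes of 0.10 (0.01 when rescaled and -0.01 under median-of-ratios scaling). Its r was 0.722 and its rho 0.738 (79 libraries, each permutation p = 1e-05), or 0.707 for r with the 2 farthest left out. Its slope was 0.48 and 0.32 under the other scalings, called in each.

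The other 3 calls did not hold under the other scalings, where their slopes were below 0. Atp6v0a2 (0.14 ± 0.04), Tmem199 (0.13 ± 0.03) and Atp6v1a (0.12 ± 0.04) rose in TPM, with adjusted p of 0.00074, 0.000228 and 0.012, but were at -0.03, -0.01 and -0.04 when rescaled and at -0.09, -0.05 and -0.08 under median-of-ratios scaling. Of these only Atp6v0a2 under median-of-ratios scaling was called negative. Mki67 was lower where the 20 leading genes took more of a library (r = -0.628, rho = -0.625, permutation p = 1e-05 for each, r = -0.646 without the 2 farthest). Relative to the rest of the transcriptome after rescaling, where 24.6% of all genes rose and 9.64% fell, 1 member rose (Atp6v0a4) and 5 fell. The 5 were Ccdc115 (-0.13), Atp6v1b1 (-0.23), Atp6v1b2 (-0.08), Atp6v0a1 (-0.13) and Atp6v0d1 (-0.09), and all were called again under median-of-ratios scaling. Ccdc115 had a slope of 0.02 ± 0.04 in TPM, which was not called. Of the calls over all genes, 95.4% were positive in TPM, 71.9% when rescaled and 44.1% under median-of-ratios scaling.

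**Figure D3:**
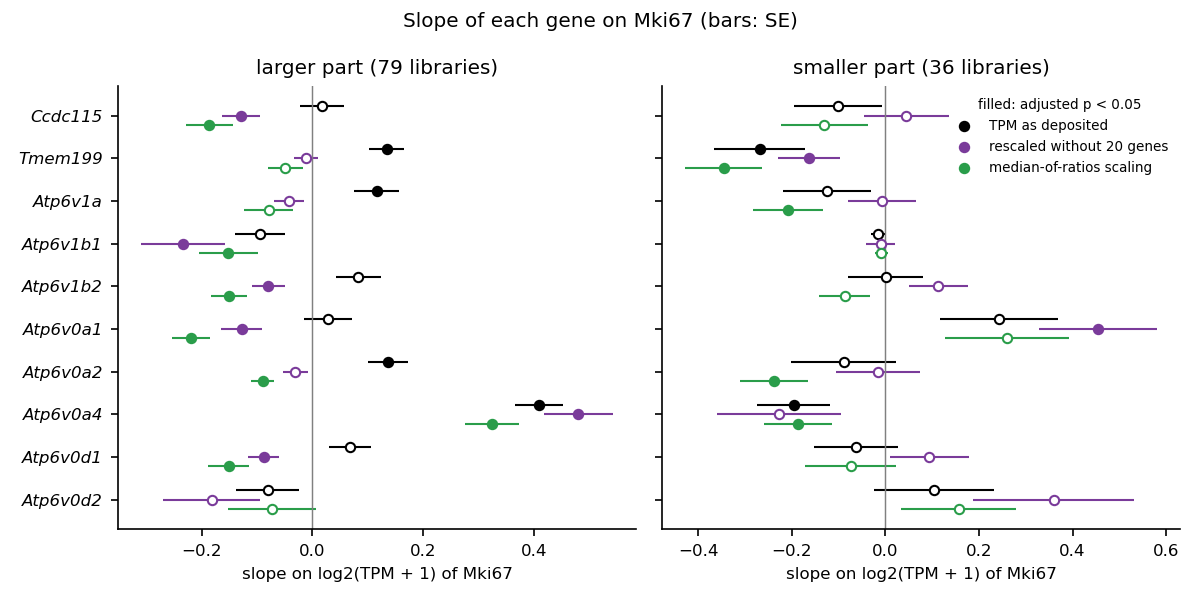
Slope of each gene on Mki67, both as log2(TPM + 1), in the larger and smaller part, with the SE as bars, for TPM as deposited (black), rescaled (purple) and median-of-ratios scaled (green). Filled points have an adjusted p under 0.05. In the larger part Atp6v0a4 is positive under all 3, at 0.41, 0.48 and 0.32, while Tmem199, Atp6v1a and Atp6v0a2 change sign.

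Shares within the a subunit were lower for a1 and a2 and higher for a3 and a4 where Mki67 was higher in the larger part. A share does not depend on the scaling, but the level of Mki67 does, and these correlations used Mki67 in TPM only. The share of Atp6v0a1 had r = -0.728 and rho = -0.727 with Mki67, that of Tcirg1 r = 0.764 and rho = 0.769, and that of Atp6v0a4 r = 0.562 and rho = 0.629. The share of Atp6v0a2 was also lower (r = -0.505, rho = -0.510). Tcirg1 itself rose with Mki67 (0.61 ± 0.05, adjusted p = 2.46e-17), and by 0.43 and 0.42 under the other scalings. All 11 macrophage genes rose with Mki67 as well, in a summed level of 27.21 to 1778.25 TPM over the larger part, and the part of macrophages in the share of Tcirg1 was not tested. Atp6v0a4 had r = 0.464 with that sum and 0.692 with the sum of the proliferation genes.

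**Figure D4:**
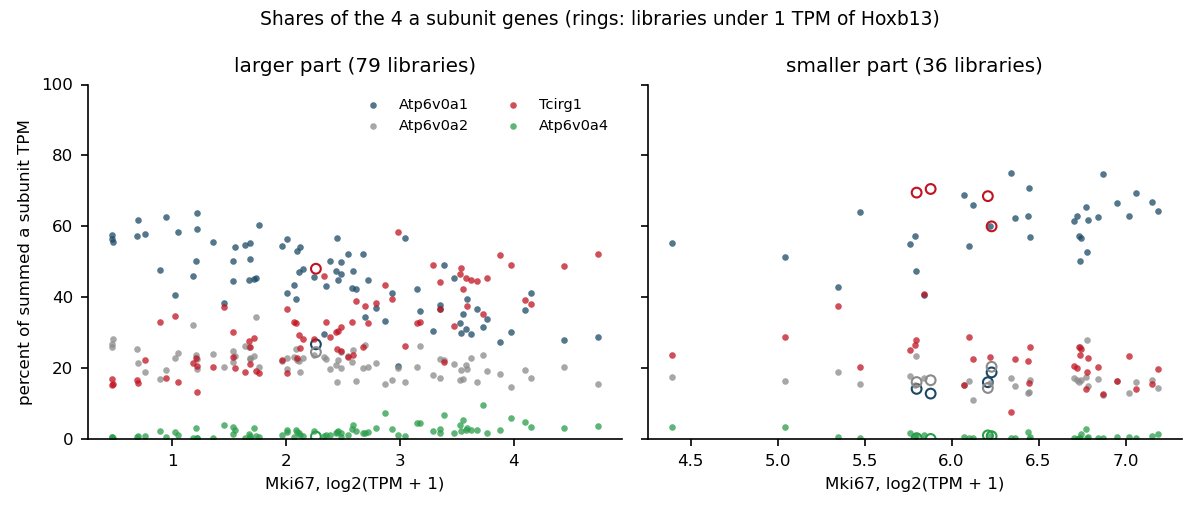
Percent of the summed TPM of the a subunit that each of its 4 genes held, against Mki67 as log2(TPM + 1), in the larger and smaller part. Each library has 4 points, and rings mark those under 1 TPM of Hoxb13. In the larger part the share of Atp6v0a1 is lower (r = -0.728) and that of Tcirg1 higher (r = 0.764) where Mki67 is higher.

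Fewer members were called with Mki67 in the smaller part, and a difference from the larger part was not tested. Tmem199 fell with a slope of -0.27 ± 0.10 (adjusted p = 0.0259) and Atp6v0a4 with -0.20 ± 0.08 (adjusted p = 0.0418), 2 of 10, while 18.3% of all genes fell and 24.5% rose. Of the calls over all genes 57.2% were positive in TPM and 44.8% under median-of-ratios scaling. The call of Tmem199 was lost without the 4 libraries that lack Hoxb13 (slope -0.23), and held under both other scalings (-0.16 and -0.35). With the sum of 10 proliferation genes, one of which is Mki67, Tmem199 had r = 0.227 and rho = 0.336 there, of the other sign. For Atp6v0a4, r was -0.389 and -0.065 without the 2 farthest libraries, so this relation rests on them. The 11 macrophage genes all fell with Mki67 there. The shares of Atp6v0a1 and Tcirg1 had rho = 0.517 and -0.575 with Mki67.

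Other V-ATPase genes with Mki67 in the larger part rose in 14 and fell in 2 of 18. Of all genes 56.1% rose and 2.71% fell, and among genes averaging 1 TPM or more 72.9% rose and 1.44% fell. Besides Tcirg1, Atp6v0e (0.22) and Atp6v1f (0.21), a V1 stalk subunit, had the steepest rise. Their slopes were smaller under the other scalings, at 0.05 and 0.05 when rescaled and at 0.03 and 0.03 otherwise. After rescaling 1 of the 18 rose and 2 fell, while 24.6% of all genes rose and 9.64% fell. The 2 that fell in TPM were Atp6v1c2 (-0.37 ± 0.14) and Atp6v1g3 (-0.19 ± 0.07). Over all genes in the smaller part 24.5% rose and 18.3% fell. Among the smaller part's libraries 4 rose and 6 fell, with Atp6v1g2, a neuronal G subunit (0.46), Vma21, an assembly chaperone (0.45), and Atp6ap1, an accessory subunit (0.44), at one end. Atp6v1c2 (-0.87), Atp6v1f (-0.63) and Atp6v0b, a proton ring subunit (-0.31), were at the other. Of 19 lysosomal genes, 16 rose in the larger part, among them Ctsb (0.45) and Gaa (0.40), and in the smaller part 13 fell, led by Neu1 (-0.95), Ctsd (-0.88) and Hexa (-0.77), and Mcoln1, a lysosomal ion channel, rose (0.16). Rescaling left 11 rising and 0 falling in the larger part, and median-of-ratios scaling 8 and 2. Of the acid-secreting cell genes, Hepacam2 rose (0.19) and Foxi1 fell (-0.15) there, and Car12 rose (0.62) in the smaller part.

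Chga, a protein of neuroendocrine granules, which the V-ATPase acidifies, was used to ask whether pump genes follow neuroendocrine RNA. Within the smaller part Atp6v0a1 rose with Chga (0.18 ± 0.03, adjusted p = 8.58e-05), 1 of 10 members, while 8.69% of all genes rose and 19.2% fell. Of those calls 31.2% were positive, against 57.7% when rescaled and 42.7% under median-of-ratios scaling. Its r was 0.682 and its rho 0.379 (n = 36, permutation p = 2e-05 and 0.0219), falling to an r of 0.50 with the 2 farthest left out. This call with Chga rests on the 4 libraries that lack Hoxb13, with 0.15 to 2.55 TPM of Chga and 7.26 to 11.61 TPM of Atp6v0a1, against 21.15 to 479.05 and 11.89 to 38.57 TPM in the other 32. Without them the slope was 0.08 and not called. Tmem199 (0.25 ± 0.05, adjusted p = 0.00675), Atp6v1a (0.21 ± 0.05, adjusted p = 0.0137) and Atp6v1b2 (0.16 ± 0.04, adjusted p = 0.0298) were then called instead, 3 of 10, while 4.82% of all genes rose and 0.134% fell. With the sum of 10 neuroendocrine genes, one of which is Chga, Atp6v0a1 had r = 0.772 and rho = 0.624, and r = 0.537 without the 4 libraries. Without them that sum had r = 0.716 with Atp6v1b2 and 0.710 with Tmem199, against 0.091 and -0.153 over the 36.

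The relation of the a subunit's shares with Chga rests on the same 4 libraries. Over the 36 libraries the share of Atp6v0a1 had r = 0.745 and that of Tcirg1 r = -0.777 with Chga, whereas rho was 0.175 and -0.178. Without the 4, r was -0.01 for each. Among other V-ATPase genes 3 rose with Chga, namely Atp6v0e2 (0.27 ± 0.04), Atp6ap1 (0.10 ± 0.03) and Atp6v1h (0.07 ± 0.03), and Tcirg1 fell (-0.32 ± 0.06). Of the lysosomal genes 12 of 19 fell, led by Ctsd (-0.28), Lamp2 (-0.24) and Npc1 (-0.21). These 3 were negative under both other scalings, but without the 4 libraries they were at 0.04, 0.00 and 0.16, and 2 lysosomal genes rose and 0 fell. Of the 4 V-ATPase genes just named none was called without those libraries, where Atp6v0e2 was at 0.12, Atp6v1h at 0.13, Atp6ap1 at -0.01 and Tcirg1 at 0.05, and 6 of the 18 were called positive. Of the 11 macrophage genes 3 fell with Chga, and 0 without those libraries.

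Chga in the larger part reached at most 4.84 TPM and separated into 72 low and 7 high libraries, which entered the fit as a factor. Limma called 0 of the 10 members there, while 1.92% of all genes rose and 0.00863% fell. Of those calls 99.6% were positive, against 84.5% when rescaled and 56.1% under median-of-ratios scaling, where the median slope of all genes was 0.01 in place of 0.13. At an unadjusted p under 0.05 there were 3, all positive, namely Atp6v0a1 (0.43 ± 0.17, adjusted p = 0.275), Atp6v1a and Atp6v1b2. Atp6v0a1 was called under both other scalings (0.31 and 0.45). Within the 72 low libraries it had r = 0.345 and rho = 0.340 (permutation p = 0.00271 and 0.00376, r = 0.339 without the 2 farthest). Of the other V-ATPase and lysosomal genes 0 of 18 and 0 of 19 were called.

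Tgm4, a transglutaminase secreted by the prostate, stands for the secretory product of the gland. It separated into 20 low and 59 high libraries within the larger part. Atp6v0d1 (0.08 ± 0.02, adjusted p = 0.0172) and Atp6v1b2 (0.08 ± 0.03, adjusted p = 0.0447) rose and Atp6v0d2 fell (-0.14 ± 0.04, adjusted p = 0.0055), while 8.0% of all genes rose and 2.99% fell. Of those calls 72.8% were positive, and 42.5% under median-of-ratios scaling. Each of these calls rests on W1154, which had 0.64 TPM of Tgm4 against 10.46 TPM or more in the other 78. Without it the slopes were 0.04, 0.03 and -0.01, 0 of 10 members were called, and 0 had an unadjusted p under 0.05, while 2.12% of all genes rose and 5.66% fell.

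Among the 59 high libraries, which do not include W1154, the d1 subunit still went with Tgm4. Atp6v0d1 had r = 0.659 and rho = 0.618 there (permutation p = 1e-05 for each, r = 0.607 without the 2 farthest). Its r was 0.782 and 0.886 under the other scalings. Ccdc115 (r = 0.474, rho = 0.344, permutation p = 0.00011 and 0.00832, r = 0.340 without the 2 farthest) and Atp6v1a (r = 0.453, rho = 0.390, permutation p = 0.00023 and 0.00208, r = 0.333 without the 2 farthest) were also positive. The restricted isoforms were on the other side, with r = -0.352 and rho = -0.439 for Atp6v1b1 (permutation p = 0.00605 and 0.00052) and r = -0.352 and rho = -0.456 for Atp6v0d2 (permutation p = 0.00671 and 0.00031). Atp6v0a4 had r = -0.296 and rho = -0.456 there (permutation p = 0.022 and 0.00031), but r = 0.537 and rho = 0.504 in the 20 low libraries (permutation p = 0.0137 and 0.024, r = 0.310 without the 2 farthest). These p-values are not adjusted for the 10 members. In the 20 low libraries Atp6v0d1 had r = 0.289 and rho = 0.021, and r was -0.225 there without the 2 farthest.

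Limma called 0 of 10 members with Tgm4 in the smaller part, with 0 at an unadjusted p under 0.05 and 0 called under the other scalings, while 1.55% of all genes rose and 0.268% fell. Of the other V-ATPase genes, Atp6v1c2 alone rose there (0.42 ± 0.05, adjusted p = 1.14e-06), and its share of the C subunit had r = 0.892 with Tgm4 and 0.112 without the 2 farthest libraries. Atp6v1c2 (0.36 ± 0.04), Atp6v0e2 (0.14 ± 0.04) and Atp6v1g2 (0.09 ± 0.03) rose in the larger part and 0 fell, and without W1154 Atp6v1c2 alone was called (0.29). Lysosomal genes rose in 3 of 19 (among them Neu1 at 0.14 and Npc2 at 0.10) in the larger part, of which Neu1 alone kept its call without W1154 (0.12), and in 0 in the smaller. Acid-secreting cell genes, of which 8 of 11 were high enough to be tested, had Car2 rising (0.34) and Slc26a4 (-0.33) and Car12 (-0.16) falling with Tgm4 in the larger part, all 3 also without W1154.

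Position on the chromosome was shared in a way that the choice of genes did not use. Tmem199 and Atp6v0a1 are on chromosome 11, and Ccdc115 and Tmem199 each start close to a neighbor on the other strand. Ccdc115 starts 179 bases from Imp4, a gene of ribosomal RNA processing, and Tmem199 starts 21 bases from Poldip2, a mitochondrial and nuclear protein that binds a DNA polymerase. Ccdc115 and Imp4 had r = 0.567 in the larger part and 0.542 in the smaller (rho 0.498 and 0.602, permutation p between 1e-05 and 0.0006, r = 0.479 and 0.440 without the 2 farthest). When rescaled, r was 0.292 and 0.371. Tmem199 and Poldip2 had r = 0.821 and 0.702 (rho 0.821 and 0.669, permutation p between 1e-05 and 4e-05, r = 0.811 and 0.639 without the 2 farthest), and r was 0.351 in the larger part when rescaled. Among genes averaging 1 TPM or more, Ccdc115 had 2 other neighbors with a start within 100 kb, Gm3052 and Ptpn18, with r between -0.212 and 0.264. A stretch of 162 bases of Ccdc115 exons is also annotated to Gm28306 on the same strand, so reads there can belong to either.

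Tmem199 had 7 further neighbors of this kind, namely Slc46a1, Sarm1, Vtn, Tnfaip1, Ift20, Tmem97 and Gm11196. For 4 of them r in the smaller part was between 0.681 and 0.776 (Tmem97, Ift20, Tnfaip1 and Gm11196, each with a permutation p of 1e-05 for r), and in the larger part these 4 had r between 0.093 and 0.628. The 5 genes most like Tmem199 in the smaller part were Tubg1 (gamma tubulin, r = 0.942), the proteasome genes Psmb3 and Psmc5, Gps1 and Dhrs7b. Those of the larger part were Atp6v0b, a subunit of the proton ring (r = 0.913), Mrpl32, Ndfip2, Timm9 and Commd3.

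The chromosomes of the most alike genes were then counted, a step taken after these names were seen. Among the smaller part's libraries 71 of the 100 genes with the highest r with Tmem199 lay on chromosome 11, which holds 8.14% of the genes ranked, with starts from 3187360 to 121327224, nearly the whole chromosome. The count was 81 when rescaled, 73 under median-of-ratios scaling and 77 without the 4 libraries that lack Hoxb13. The median r of Tmem199 with genes of chromosome 11 was 0.440, and with all others 0.276. The count for the larger part was 11 of 100. Genes are not independent replicates, so these counts are a description, and a difference between the parts was not tested.

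Other members of the smaller part had more modest counts of this kind. Atp6v0a2 had 32 of 100 on chromosome 5 (6.99% of genes), and 18 under median-of-ratios scaling. Atp6v1a had 22 of 100 on chromosome 16 (3.11%). Atp6v0a1 had 19 of 100 on chromosome 11, and 48 without the 4 libraries that lack Hoxb13. Atp6v0d1 had 12 of 100 on chromosome 8 (5.19%), and 30 without those libraries. Atp6v1b2, on the same chromosome, had 5 of 100, close to that percent, and 4 without those libraries. Ccdc115 had 9 of 100 on chromosome 1 (6.43%) and 14 without them. Over the larger part the counts of the 7 members that average 1 TPM or more were between 3 and 17.

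**Figure D5:**
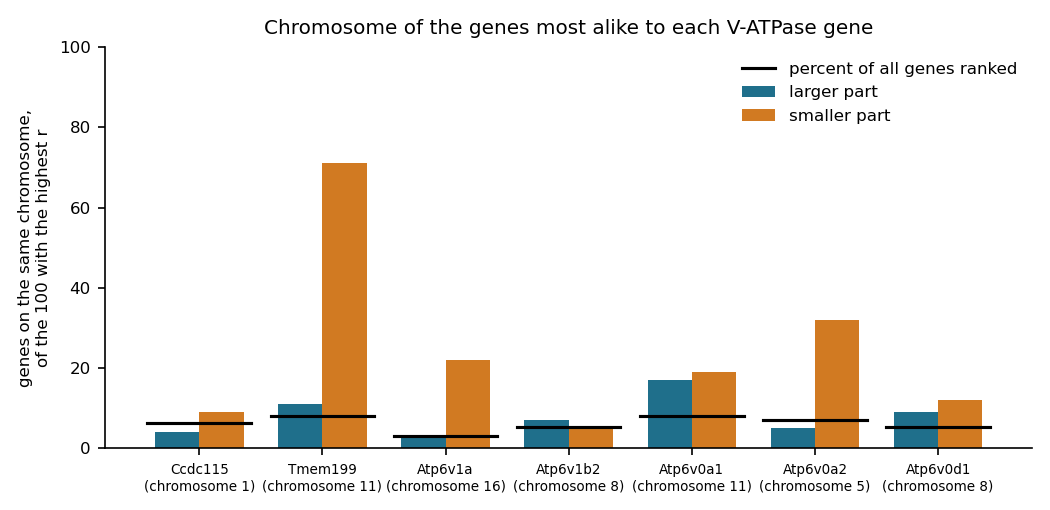
For each of the 7 genes that average 1 TPM or more, bars give how many of the 100 genes with the highest Pearson r lay on the same chromosome, in the larger (blue) and smaller (orange) part, and black lines give the percent of all ranked genes on that chromosome. Tmem199 in the smaller part stands out with 71 against 8.14%.

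Chromosome 1 held 9 of the 100 genes with the highest r with Ccdc115 in the smaller part, where it holds 6.43% of genes. The count was 14 without the 4 libraries that lack Hoxb13, and 4 in the larger part. The genes most like Ccdc115 thus shared its chromosome less often than those most like Tmem199 shared chromosome 11. For the larger part they were Sec23ip (r = 0.777) and Gosr2, both of transport between the endoplasmic reticulum and Golgi, Tsr1, of ribosome assembly, Cdk7, a kinase of transcription and the cell cycle, and Cog3, of the Golgi tethering complex. For the smaller part they were Tcea1, a transcription elongation factor (r = 0.698), Cdk2ap1, Mblac1, Cox19 and Atp6v1h, the regulatory H subunit of the pump (r = 0.639). The genes most like Atp6v0a4 in the larger part were led by Arhgef4 (r = 0.872), looked up after its values were seen.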

How the data were processed

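Total RNA of prostate tumor tissue was depleted of ribosomal RNA, made into TruSeq libraries that the sources used here do not describe as stranded, and sequenced. Per the study's methods and the submitters' notes, the authors trimmed reads with Trimmomatic, aligned them with Bowtie2 2.2.5 to a transcriptome holding the alleles of C57BL/6 and WSB (GRCm38) and estimated abundances with RSEM 1.2.20; the deposited values are TPM. TPM keeps no depth, so sequencing depth is unknown and no counting interval was given. Of 45699 gene identifiers, 45136 had a symbol in GENCODE M21, as did all 10 members. Members and gene lists were chosen with earlier results of these data known.

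All libraries belong to 1 labelled group, and p-values measure the spread between mice. Libraries were divided on the first principal component of 14623 genes of at least 1 TPM on average. Chga, Tgm4 and Atp6v1b2 separated within a division. The rule was at least 6 libraries each, a BIC gain of at least 10 and Ashman's D of at least 2. The sides of Chga and Tgm4 entered the fits as a factor or were taken apart. Those of Atp6v1b2 were taken apart in correlations of its level and pooled in limma fits. Relations were fitted with limma 3.58.1 (R 4.3.3, eBayes with trend) on log2(TPM + 1), over all genes averaging 0.1 TPM or more, with Benjamini-Hochberg adjustment over those genes and a threshold of 0.05. Correlations (Pearson's r, Spearman's rho) were tested by two-sided permutation with 100000 permutations, exact for fewer than 10 libraries, computed with scipy 1.17.1. Named were all members, in each fit the 3 listed genes with the steepest called slopes in each direction, the 5 genes most like Ccdc115 and Tmem199, and genes starting within 100 kb of either. A few genes that this rule names are not reported here. Lists of other V-ATPase, lysosomal, acid-secreting cell, macrophage, proliferation and seminal vesicle genes were described by counts or sums. Alternatives were a pseudocount of 0.1, other filters on low values, ranks, both other scalings, all libraries with the division as a factor, and leaving out libraries. The pipeline was tested on simulated data. Sequences came from RefSeq promoters on GRCm38.p6. No member had a near-identical copy (95% identity over 80% of length).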

Additional observations from a re-analysis of the deposited data

How the results depend on the processing

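Of 141 refits of the 16 called relations of members, 18 lost the call, 8 changed sign and the others kept direction and call. The 8 were, with Mki67 in the larger part, the slopes of Atp6v0a2 (-0.031 rescaled, -0.09 by median of ratios), Tmem199 (-0.012 and -0.049) and Atp6v1a (-0.042 and -0.079), and, with Mki67 in the smaller part, those of Atp6v0a4 (0.323) and Tmem199 (0.077) when all libraries entered with the division as a factor. The number of members called with Chga in the larger part was 0 and became 1 rescaled, 1 by median of ratios and 2 over all libraries. In the smaller part it was 1 and became 2 with a pseudocount of 0.1, 5 rescaled, 4 by median of ratios, 2 among genes of at least 1 TPM on average, 0 with ranks, 2 over all libraries and 3 without the 4 libraries that stand apart in Chga. With Mki67 it was 4 in the larger part, 6 rescaled (1 positive, 5 negative) and 7 by median of ratios (1 and 6), and 2 in the smaller part but 1 with a pseudocount of 0.1, 4 by median of ratios, 1 among genes of at least 1 TPM, 1 with ranks and 1 without those 4 libraries. With Tgm4 it was 3 in the larger part, 6 with ranks, 1 over all libraries and 0 without the library that lacks Hoxb13, and 0 in the smaller part but 1 over all libraries. With Ccdc115 it was 6 in the larger part, 4 rescaled and 7 by median of ratios (Atp6v0a4 added as negative), and 0 in the smaller part but 6 over all libraries. The median r of the 45 pairs moved from 0.363 to 0.066 rescaled and 0.141 by median of ratios in the larger part, and from 0.098 to 0.205 without the libraries that lack Hoxb13, 0.167 rescaled and 0.15 by median of ratios in the smaller part. The causes of these changes were not tested. Where libraries were left out, their number was also smaller. No paired analysis was possible because there is only 1 group of mice. TPM values carry no depth, the values of Atp6v1b1, Atp6v0a4 and Atp6v0d2 lie near 0 in most libraries, and the alternatives that leave out libraries lacking Hoxb13 or standing apart were chosen after seeing the data.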
